A study of Mus with 21 samples.

Results

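The transcriptome of skin wounds kept at an acid or an alkaline pH in the presence of acidic fibroblast growth factor (aFGF, FGF1) was compared on day 4 after wounding. The comparison used 6 of the 21 RNA-seq libraries of the series, 3 of wounds under a hydrogel of pH 6.4 (6.4/aFGF) and 3 of wounds under a hydrogel of pH 8.4 (8.4/aFGF), which were chosen by their labels and not by any measured value. All 18806 genes of the count tables entered, of which 14991 had enough reads to be tested. Every animal was a wild-type female C57BL/6 mouse, 8 weeks old at purchase, with a full-thickness punch wound on each side of the back held open by a splint. Both groups had the same scaffold, a hydrogel of methacrylated gelatin (GelMA, 6%) with 4 µg/ml aFGF, and the hydrogels differed in the pH they were set to. The study adjusted that pH with hydrochloric acid and sodium bicarbonate. In its release test in buffer, the pH 6.4 gel gave off aFGF faster and in a larger share than the pH 8.4 gel. How much aFGF each gel released into the wound is not measured by these libraries. The pH, the added chemicals and the dose delivered therefore cannot be told apart. None of the 21 libraries was of a hydrogel without growth factor, and the control mice had wounds with no scaffold. Each group was 3 mice, and whether the wounds of both sides of a mouse went into 1 library was not given in the sources used here. The libraries are named as biological replicates in the labels.

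FGF1 is a secreted mitogen that binds heparan sulfate and all of the FGF receptor tyrosine kinases, which signal through the Ras, MAP kinase and PI3 kinase pathways. In a skin wound FGFs act on fibroblasts, endothelial cells and keratinocytes during granulation tissue formation and re-epithelialization. Intact skin has an acid surface, and the pH of a wound bed is closer to that of blood. The question addressed by the comparison was whether the same growth factor acts differently in wounds of different pH.

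The 6 libraries held 35787730 to 37817833 counts each, and a gene read 0 times could lie anywhere up to 3 counts in such a library. Values are given as CPM (the counts of a gene relative to the library total), scaled between libraries by the TMM method. Skin was present as labelled in all 6 libraries, with summed basal keratinocyte genes at 7126 to 8874 CPM and summed fibroblast and collagen genes at 55651 to 81683 CPM. The 3 libraries of a group differed from each other far beyond counting noise. Over all tested genes the root mean square log2 difference between an acid and an alkaline library was 0.524 to 0.817 (median 0.678), against 0.564 to 0.860 within 6.4/aFGF and 0.604 to 0.733 within 8.4/aFGF. The first principal component held 46.1% of the variance and did not separate the pH groups, with 6.4/aFGF replicate 3 (54.6) and 8.4/aFGF replicate 2 (40.6) at one end and 6.4/aFGF replicate 1 (-40.7) and replicate 2 (-35.4) at the other. Skeletal muscle genes moved with this component, being highest in the libraries with positive values, at a summed level of 26605 CPM in 6.4/aFGF replicate 3, 13332 CPM in 8.4/aFGF replicate 2 and 10926 CPM in 8.4/aFGF replicate 1, and 1882 to 3701 CPM in the other 3 libraries. The part of muscle tissue in the results below was not tested, and each gene list is given with single libraries left out. Transcripts of other organs stood out in 3 of the libraries used. Liver genes in 8.4/aFGF replicate 2 are described at the end. In 7.4/aFGF replicate 3, 24 genes were high in that library alone, led by the cartilage collagen Col2a1 and including genes of bone and bone marrow, and in 8.4/bFGF replicate 2, 95 genes were, led by the steroidogenic gene Hsd3b1 and including Inha of the ovary and Ovgp1 of the oviduct.

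No gene passed the test of 6.4/aFGF against 8.4/aFGF. A call needed a log2 fold change of more than 0.58, up or down, together with a p under 0.05 after Benjamini-Hochberg adjustment. With edgeR's quasi-likelihood test 0 of 14991 genes were called (0%), and the smallest adjusted p was 0.916. Before adjustment 743 genes (4.96%) had a p under 0.05, of which 422 (2.82%) were higher and 321 (2.14%) lower at pH 6.4, while 749.55 would be expected at that p without any difference. The 2 groups of 3 libraries did not overlap for 815 genes that were higher (5.44%) and 764 genes that were lower (5.1%) at pH 6.4, 1579 (10.5%) in all, and 51.8% of all genes had a log2 fold change above 0 and 48.2% one below. DESeq2, run on the same counts as an alternative, called 15 of 18011 genes (0.0833%), or 14 (0.0777%) without its outlier cutoff and independent filtering. Of the 15, 7 were higher and 8 lower at pH 6.4, and the groups overlapped for none. That number rested on single libraries: it was 344 without 6.4/aFGF replicate 3, 38 without 8.4/aFGF replicate 2, 29 without 8.4/aFGF replicate 3, 13 without 6.4/aFGF replicate 1, 10 without 8.4/aFGF replicate 1 and 4 without 6.4/aFGF replicate 2. With 3 libraries against 3, an exact two-sided permutation test of a single gene cannot go below p = 0.1. Over all genes the share with a p under 0.05 was itself 0.908% to 5.84% for higher and 1.28% to 4.63% for lower genes when 1 library was left out, largest without 6.4/aFGF replicate 3 (1591 genes) and smallest for higher genes without 6.4/aFGF replicate 2. Differences below are therefore given as values, and "higher" and "lower" describe the group means. In bulk tissue, fewer cells of a type and less RNA per cell cannot be told apart.

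**Figure D1:**
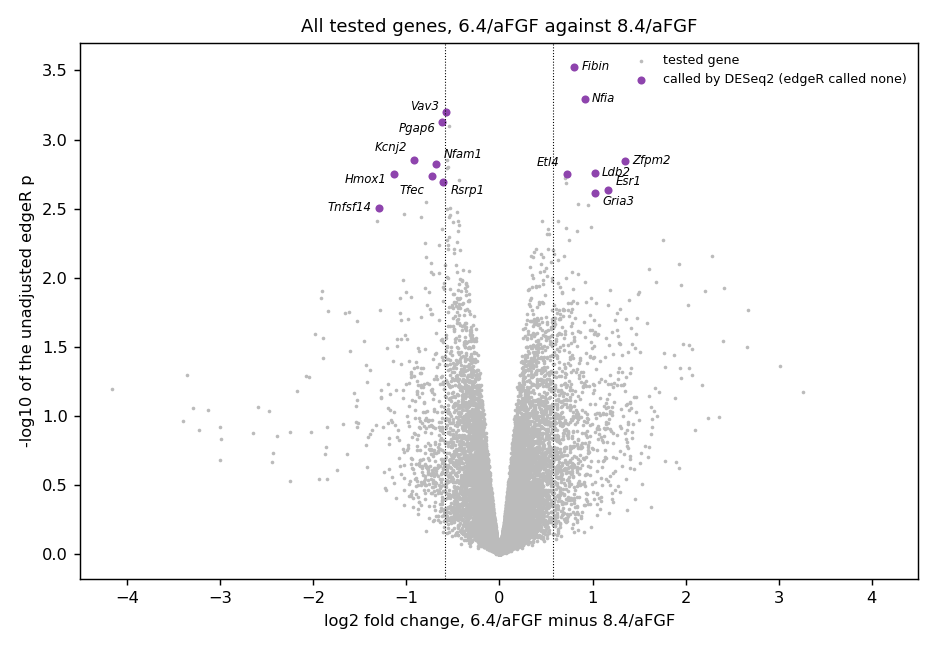
Each grey point is 1 of the 14991 tested genes, with the log2 fold change (6.4/aFGF minus 8.4/aFGF) on the x axis, the -log10 of the unadjusted edgeR p on the y axis and dotted lines at a log2 fold change of 0.58 in either direction. Purple points with names are the 15 genes called by DESeq2, whose log2 fold changes lie between -1.30 (Tnfsf14) and 1.35 (Zfpm2). None of them passed the edgeR test.

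The 10 genes with the smallest p among those higher in every 6.4/aFGF library were Fibin, Nfia, Zfpm2, Ldb2, Etl4, Tshz2, Ebf1, Esr1, Gria3 and Dglucy, with log2 fold changes of 0.70 to 1.35. Fibin, a secreted protein first described in fin bud development, had 69.7, 78.5 and 61.8 CPM in 6.4/aFGF against 37.2, 42.3 and 40.9 CPM in 8.4/aFGF, a log2 fold change of 0.81 (SE 0.118, unadjusted p = 0.000299 in the fit over all genes, adjusted p = 0.916 with edgeR and 0.00272 with DESeq2). Nfia, a transcription factor of the nuclear factor I family, had 20.3, 26.8 and 24.7 CPM against 12.3, 12.2 and 13.6 CPM (log2 fold change 0.91, SE 0.146). For both genes the lowest acid library lay well above the highest alkaline one, which follows in part from the choice of these genes.

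Zfpm2, a cofactor of GATA transcription factors, had the largest difference of this group, with 4.26, 4.32 and 5.94 CPM at pH 6.4 against 2.10, 1.94 and 1.68 CPM at pH 8.4, a log2 fold change of 1.35 (SE 0.259). Esr1, the oestrogen receptor alpha, had 11.3, 12.6 and 15.0 CPM against 5.41, 7.48 and 4.4 CPM (1.17, SE 0.245). Ldb2, which bridges LIM-domain transcription factors, had 18.8, 26.1 and 26.1 CPM against 9.51, 13.7 and 11.7 CPM (1.03, SE 0.204). The log2 fold changes of these 3 genes thus ran from 1.03 to 1.35. That every acid library lay above every alkaline one follows from the choice of the genes. Ebf1, a transcription factor of B cells and of stromal and adipocyte precursors, had 42.0, 45.5 and 32.8 CPM against 27.1, 22.6 and 23.8 CPM (0.71, SE 0.147). Tshz2, a zinc finger transcription factor, had 39.3, 37.0 and 29.7 CPM against 22.6, 23.3 and 19.3 CPM (0.70, SE 0.143). Gria3, a subunit of AMPA-type glutamate receptors (log2 fold change 1.03), Dglucy, the D-glutamate cyclase (0.84), and Etl4 (0.73) completed the 10. DESeq2 called 7 of them, all but Tshz2, Ebf1 and Dglucy.

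The 10 genes at the other end, lower in every 6.4/aFGF library, were Vav3, Pgap6, Bst1, Kcnj2, Trim12c, Nfam1, B4galt6, Fgr, Hmox1 and Tfec, with log2 fold changes of -1.13 to -0.54. Hmox1, the stress-induced haem oxygenase that degrades haem, had the largest difference. Its level was 1012, 716 and 1043 CPM at pH 6.4 and 2428, 2098 and 1557 CPM at pH 8.4, that is 923 ± 181 CPM against 2028 ± 440 CPM (SD, n = 3 each) or 2.19-fold lower at pH 6.4. The log2 fold change was -1.13 (SE 0.226), with an adjusted p of 0.916 in edgeR and 0.00402 in DESeq2. Kcnj2, an inwardly rectifying potassium channel, had 15.2, 18.6 and 16.8 CPM against 37.4, 24.9 and 33.2 CPM (log2 fold change -0.91, SE 0.175). Tfec, a transcription factor of the MiT family found in macrophages, had 17.9, 21.5 and 18.0 CPM against 31.3, 36.3 and 27.6 CPM (-0.73, SE 0.146). The 2 groups were separate for each of the 3 genes, as the choice of these genes requires.

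Nfam1, an immune receptor with an ITAM, had 93.6, 94.7 and 88.0 CPM at pH 6.4 against 157, 122 and 164 CPM at pH 8.4 (log2 fold change -0.68, SE 0.131). Fgr, a Src-family kinase of neutrophils and macrophages, had 66.5, 69.9 and 80.6 CPM against 111, 106 and 105 CPM (-0.56, SE 0.110). Bst1, the ectoenzyme CD157 of myeloid and stromal cells, had 121, 118 and 123 CPM against 185, 167 and 179 CPM (-0.54, SE 0.0938). Bst1 was at 121 ± 2.58 CPM and 177 ± 9.51 CPM (SD, n = 3 each). A small spread beside the difference is what the choice by p favours. Vav3 had 39.5, 34.4 and 37.4 CPM against 57.9, 53.7 and 54.6 CPM (-0.57, SE 0.0956). The remaining members were Pgap6 (-0.61), a lipid remodelling enzyme of GPI-anchored proteins, B4galt6 (-0.55), a lactosylceramide synthase, and Trim12c (-0.57), a member of a family of near-identical genes whose reads the authors' counting could have split. With any 1 of the 6 libraries left out the direction is fixed by the choice of these genes, and their log2 fold changes then stayed between 0.60 and 1.42 for the first 10 and between -1.30 and -0.50 for the others.

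**Figure D2:**
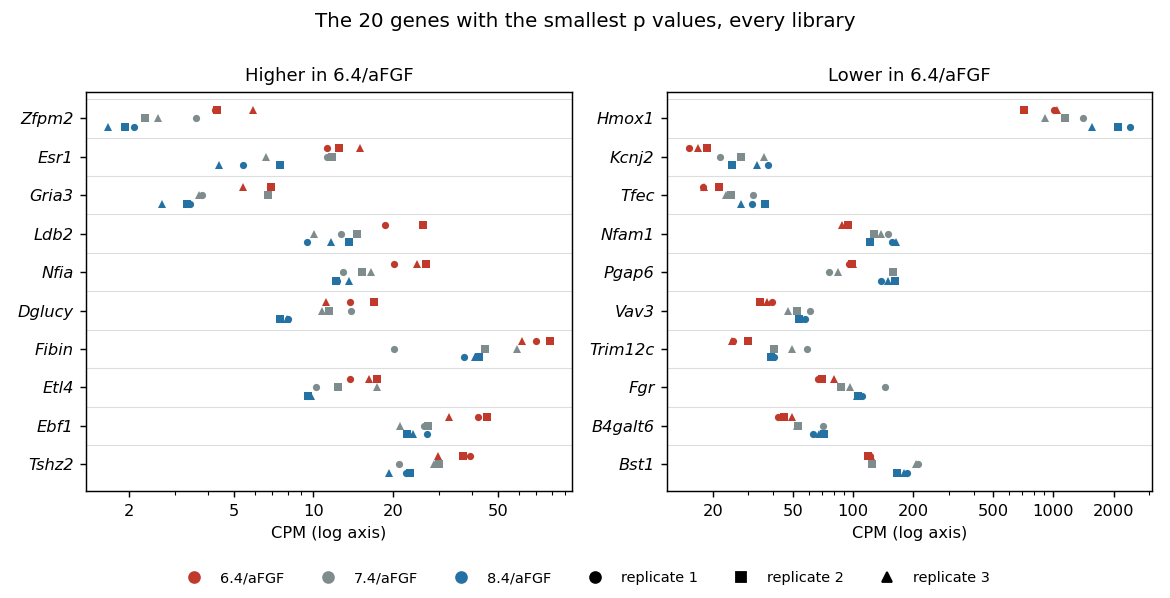
Each point is the level of a gene in 1 library, in CPM on a log axis, for the 10 genes higher (left) and the 10 genes lower (right) in 6.4/aFGF, with groups by colour and replicates by shape. The 6.4/aFGF libraries (red) and the 8.4/aFGF libraries (blue) do not overlap for any of the 20 genes, as the choice of these genes requires, and 7.4/aFGF (grey), which took no part in the choice, often lies between them.

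The neutral hydrogel with aFGF was not used to choose these genes. The mean of 7.4/aFGF lay between the means of 6.4/aFGF and 8.4/aFGF for 17 of the 20 genes, and for 13 of them all 3 libraries of 7.4/aFGF lay beyond all 6.4/aFGF libraries on the side of 8.4/aFGF. Hmox1 had 1412, 1139 and 911 CPM at pH 7.4, and Nfia had 13.0, 15.4 and 16.5 CPM. Esr1 stood at 11.3, 11.8 and 6.60 CPM, near the acid group in 2 libraries and within the alkaline range in replicate 3, the library with cartilage and bone transcripts. Since the 20 genes were taken for their extreme values in the acid and alkaline groups, another group lying between is no test of a graded response. The wounds without a scaffold had 505, 841 and 494 CPM of Hmox1 and 34.2, 12.4 and 33.2 CPM of Nfia.

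The genes that the study named in its sequencing, interferon-related for the most part, were compared next. Tnfsf14, the TNF-family cytokine LIGHT, had 19.5, 19.7 and 14.7 CPM in 6.4/aFGF against 36.0, 31.8 and 64.9 CPM in 8.4/aFGF. Its log2 fold change was -1.30 (SE 0.288), with an adjusted p of 0.916 in edgeR and 0.0301 in DESeq2. Replicate 3 of 8.4/aFGF was far above the other 2 libraries, and without it the log2 fold change was -0.93. Il15, a cytokine of T and NK cell maintenance, had 8.74, 8.64 and 8.24 CPM against 11.2, 13.3 and 17.6 CPM (-0.71, SE 0.197), and Oas3, an interferon-induced sensor of double-stranded RNA, had 54.9, 31.3 and 51.1 CPM against 63.6, 77.8 and 62.2 CPM (-0.57, SE 0.226). Gm12185, an interferon-inducible GTPase gene with close paralogs, was at 0.361 to 0.602 CPM against 0.803 to 1.03 CPM. For these 4 of the 7 tested genes the groups did not overlap, while 5.1% of all tested genes stood apart in that direction. For the other tested genes of this set the groups overlapped. The study named the genes from wounds with aFGF at pH 6.4 and 7.4, so the 6.4/aFGF group took part in their choice. Low values at pH 6.4 can follow in part from that choice. Apold1, an immediate early gene of endothelial cells, had 40.0, 33.8 and 35.7 CPM in 6.4/aFGF and 65.1, 22.5 and 12.7 CPM in 8.4/aFGF (log2 fold change 0.13, SE 0.545), so the acid libraries lay within the range of the alkaline ones, and the difference was -0.27 without 8.4/aFGF replicate 3, -0.08 without replicate 2 and 1.05 without replicate 1. The large interferon-induced protein gene Rnf213 (-0.03) and the GTPase gene F830016B08Rik (-0.11) differed less than the spread between replicates. Epx, the eosinophil peroxidase, had 0 counts in all 6 libraries, which allows up to 3 counts in each.

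Genes of the study's stains and the endogenous ligands overlapped between the groups. Acta2, the smooth muscle actin of myofibroblasts, had 253, 298 and 215 CPM at pH 6.4 and 231, 214 and 182 CPM at pH 8.4 (log2 fold change 0.29, SE 0.155). Mrc1, the mannose receptor CD206, had 678, 659 and 1021 CPM against 1247, 1262 and 736 CPM (-0.45, SE 0.274). The third replicates of both groups crossed over for Mrc1. Pecam1 (CD31 of endothelial cells) had a log2 fold change of 0.13 and Ccr7 one of 0.19, and both went to the other side of 0 without 6.4/aFGF replicate 2 (-0.02 and -0.04). Endogenous mouse Fgf1 was at 6.54 to 15.4 CPM and Fgf2 at 3.32 to 7.26 CPM over the 6 libraries. Fgf1 (0.25) turned to -0.16 without 6.4/aFGF replicate 3, and Fgf2 (-0.23) to 0.01 without 6.4/aFGF replicate 2. The applied protein itself is not measured by RNA-seq.

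The receptors through which aFGF acts had levels that overlapped between the groups. Fgfr1, with 293, 275 and 245 CPM against 258, 240 and 265 CPM, had a log2 fold change of 0.09 (SE 0.110). The other receptor kinases were named, like Fgfr1, outside the rule for named genes and after their values were seen. Their log2 fold changes were 0.44 for Fgfr2, 0.07 for Fgfr3 and 0.49 for Fgfr4, and each changed sign without 1 library (Fgfr2 -0.06 and Fgfr4 -0.82 without 6.4/aFGF replicates 1 and 3, Fgfr3 -0.09 without 8.4/aFGF replicate 1 and -0.07 without 6.4/aFGF replicate 3). Of the 21 tested receptors and binding partners 14 lay above 0 (51.8% of all genes did), with a median of 0.08 that fell to -0.01 without 6.4/aFGF replicate 3. The groups stood apart for 1 member, which was lower at pH 6.4 (5.1% of all genes). An unadjusted p under 0.05 was found for 2, both higher at pH 6.4 (2.82% of all genes). These were Klb, the beta-Klotho coreceptor of endocrine FGFs (8.08, 11.0 and 0.944 CPM against 2.01, 0.665 and 1.11 CPM), and Fgfrl1, a decoy receptor without a kinase domain (24.7, 29.8 and 17.9 CPM against 18.6, 15.1 and 15.4 CPM). In both genes the third acid replicate lay inside the alkaline range. The 20 targets and feedback inhibitors of FGF and ERK signalling, such as the Sprouty and ETS genes, had 10 members on either side of 0 and a median of -0.03. None of them had a p under 0.05, and the groups stood apart for Etv4 (0.46), an ETS factor induced by FGF, with 11.9, 11.5 and 11.6 CPM against 7.63, 6.76 and 11.1 CPM, and for Spred2 (0.26), 2 of 20 genes where 10.5% of all genes stood apart. Left out 1 at a time, 8.4/aFGF replicate 1 and replicate 3 moved the list's median to 0.27 and -0.23.

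Genes that handle or sense acid were examined because the pH was the treatment. Of 32 tested genes of proton and bicarbonate transport, carbonic anhydrases, lactate transport and acid sensing, 21 lay above 0 (median 0.11, and -0.03 without 8.4/aFGF replicate 2) and 1 had a p under 0.05, against 4.96% of all genes. This was Trpv4, a cation channel of keratinocytes and endothelial cells, with 18.2, 21.8 and 22.3 CPM at pH 6.4 and 28.3, 32.6 and 24.6 CPM at pH 8.4 (log2 fold change -0.45, SE 0.152). The proton-sensing receptors Gpr4 and Gpr65, picked from this list after their values were seen, had log2 fold changes of -0.16 and -0.21. Gpr65 had 19.1, 23.9 and 34.8 CPM at pH 6.4 and 46.6, 28.3 and 15.7 CPM at pH 8.4, and its sign changed without 8.4/aFGF replicate 1 (0.24). The acid and alkaline libraries of both receptors overlapped.

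The vacuolar proton pump, which acidifies lysosomes and endosomes, showed small differences. Of its 19 tested subunits and partners 3 lay above 0 (51.8% of all genes did). The median of -0.08 stayed between -0.17 and -0.05 with any 1 library left out. For 4 of the 19 the groups stood apart, all lower at pH 6.4 (5.1% of all genes). The summed level of the list was 2148 to 2418 CPM in 6.4/aFGF and 2479 to 2507 CPM in 8.4/aFGF, without overlap. Atp6v1b2, a subunit of the catalytic head, had 179, 204 and 194 CPM against 250, 217 and 250 CPM (-0.31, SE 0.111). It was the only one of the 19 with a p under 0.05 in either direction, against 4.96% of all genes in either direction and 2.14% in that one. With 1 library left out, 0 to 2 of the genes were lower with such a p, against 1.28% to 4.63% of all genes. Atp6v0b, of the membrane sector, had 158, 178 and 202 CPM against 210, 217 and 205 CPM (-0.23).

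Genes of dividing cells were higher at pH 6.4 in the group means. All 39 tested genes of the cell cycle had a log2 fold change above 0, against 51.8% of all genes, with a median of 0.40 against 0.00995 for all genes. Of these 12 had an unadjusted p under 0.05 in that direction (2.82% of all genes did), and for 7 the groups did not overlap (5.44% of all genes). None passed the adjusted test. Tk1, the thymidine kinase of S phase, had 25.4, 29.1 and 25.3 CPM at pH 6.4 and 11.7, 14.2 and 20.5 CPM at pH 8.4 (log2 fold change 0.78, SE 0.216). Ube2c, a ubiquitin-conjugating enzyme of mitotic exit, had 40.3, 39.4 and 31.9 CPM against 24.0, 29.4 and 27.4 CPM (0.47, SE 0.135), and Melk, a mitotic kinase, had 12.9, 12.5 and 10.4 CPM against 6.05, 5.43 and 9.48 CPM (0.77, SE 0.247). In Tk1 and Melk the third replicates of both groups came closest to each other. They crossed over in Top2a, the DNA topoisomerase of dividing cells, with 113, 109 and 77.4 CPM against 52.8, 57.3 and 80.4 CPM (0.65, SE 0.210), and in the proliferation marker Mki67, with 110, 117 and 66.8 CPM against 58.5, 58.3 and 92.3 CPM (0.49, SE 0.269). Pcna, the sliding clamp of DNA replication, had the same mean in both groups (120 ± 11.0 CPM against 120 ± 6.11 CPM, SD, n = 3 each), and the sign of its log2 fold change, 0.004, depended on the scaling.

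The proliferation genes summed to 1506, 1564 and 1190 CPM in 6.4/aFGF and to 971, 985 and 1357 CPM in 8.4/aFGF, so the groups overlapped through replicate 3 of each. The number with a p under 0.05 rested on these libraries. It was 25 without 8.4/aFGF replicate 3, 20 without 6.4/aFGF replicate 3 and 6 without 6.4/aFGF replicate 1. It was 3 without 8.4/aFGF replicate 2 and 2 without 6.4/aFGF replicate 2 or 8.4/aFGF replicate 1. The shares of all genes higher with such a p were, in the same order, 3.19%, 5.84%, 1.73%, 1.69%, 0.908% and 2.07%. The median stayed between 0.29 and 0.60 throughout. At pH 7.4 the sums were 1140, 1174 and 1571 CPM, replicate 3 being above every acid and alkaline library. The genes of 1 list are measured in the same libraries and are not independent of each other.

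**Figure D3:**
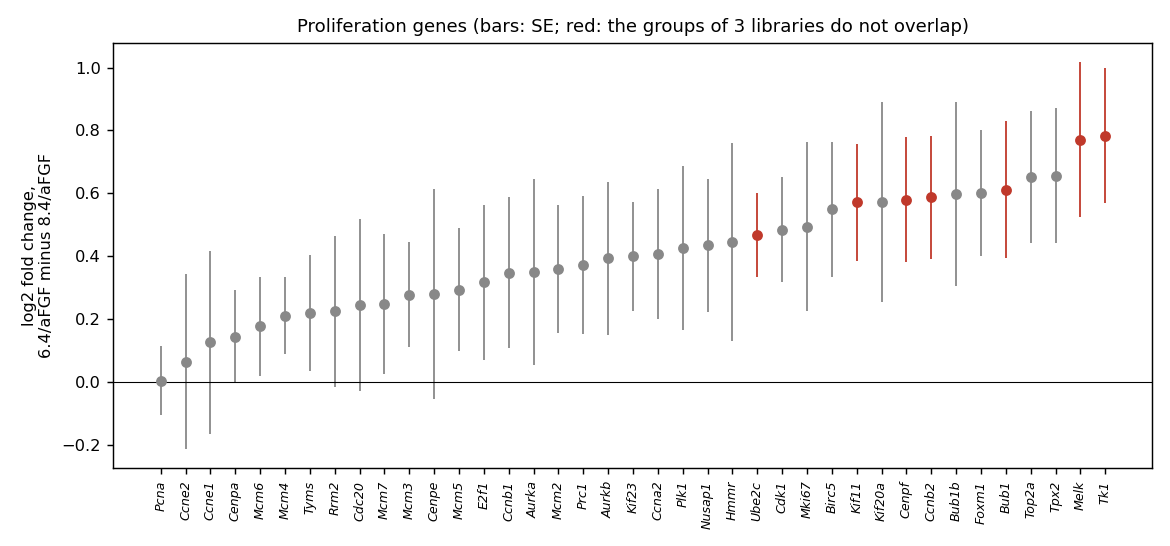
Each point is the log2 fold change (6.4/aFGF minus 8.4/aFGF) of 1 of the 39 tested proliferation genes, with bars of 1 SE on each side. Points in red are the 7 genes whose groups of 3 libraries do not overlap. All points lie at or above 0, from Pcna at 0.004 to Tk1 at 0.78.

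Genes of adipocytes and of contractile and matrix-producing cells were likewise higher at pH 6.4 in the group means. Of the 18 adipocyte genes 16 were above 0, with a median of 0.72, the highest of the 46 lists, and 3 of them had a p under 0.05 (51.8% and 2.82% of all genes). Acsl1, which activates fatty acids, had 206, 324 and 96.3 CPM at pH 6.4 against 121, 72.9 and 65.8 CPM at pH 8.4 (log2 fold change 1.27, SE 0.446). Cfd, the adipokine adipsin, had 1876, 1505 and 587 CPM against 793, 474 and 494 CPM (1.17, SE 0.430), and Gpd1, the glycerol-3-phosphate dehydrogenase, had 212, 242 and 113 CPM against 144, 77.8 and 66.8 CPM (0.98, SE 0.376). In all 3 genes the third acid replicate lay inside the alkaline range. Lep, the fat hormone leptin, went the other way with 29.6, 27.6 and 23.0 CPM against 42.4, 27.3 and 56.7 CPM (-0.65, SE 0.260). Summed adipocyte genes were at 6857, 8948 and 3761 CPM against 5432, 3042 and 3012 CPM, so the groups overlapped. The median ranged from 0.46 without 6.4/aFGF replicate 2 to 1.08 without 8.4/aFGF replicate 1, and no adipocyte gene had a p under 0.05 in this direction without 6.4/aFGF replicate 1 or 2 or 8.4/aFGF replicate 2 or 3.

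Among 18 genes of myofibroblasts and smooth muscle 17 lay above 0 (median 0.36), against 51.8% of all genes, and 3 had a p under 0.05 in that direction, against 2.82%. Myh11, the smooth muscle myosin, had 46.0, 43.4 and 36.7 CPM at pH 6.4 against 34.3, 36.3 and 28.1 CPM at pH 8.4 (log2 fold change 0.36, SE 0.140). Mylk, the myosin light chain kinase, had 52.8, 68.8 and 40.3 CPM against 36.0, 42.4 and 35.5 CPM (0.51, SE 0.198), and Cspg4, the NG2 proteoglycan of pericytes, had 46.2, 32.4 and 15.7 CPM against 16.8, 14.7 and 19.7 CPM (0.88, SE 0.365). Only the groups of Myh11 stood apart among these 3. Of 34 fibroblast and collagen genes 30 lay above 0 with a median of 0.25, and 2 had a p under 0.05, against the same 51.8% and 2.82%. Col16a1, a fibril-associated collagen, had 236, 242 and 173 CPM against 169, 166 and 163 CPM (0.39, SE 0.143). Col5a1, the regulator of collagen fibril width, had 1703, 1840 and 1114 CPM against 1287, 985 and 916 CPM (0.55, SE 0.226). Col1a1, the main collagen of granulation tissue, had 14632, 15215 and 9705 CPM against 12300, 9892 and 9120 CPM (0.34, SE 0.217). The first 2 acid libraries stood above the rest for Col5a1 and Col1a1 while replicate 3 was near the alkaline ones. The counts with a p under 0.05 rested on single libraries. Of the 34 fibroblast genes 12 passed without 6.4/aFGF replicate 3, the library with the most muscle transcripts, and 0 without 6.4/aFGF replicate 1 or 2. Of the 18 myofibroblast genes 6 passed without 6.4/aFGF replicate 3, 2 without 8.4/aFGF replicate 2 and 0 without any other library. Of all genes, 5.84% were higher with such a p without 6.4/aFGF replicate 3, and 0.908% to 3.19% without any other library.

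Genes of monocytes and macrophages, of M2-like macrophages and of neutrophils had medians below 0, while the M1-like list turned on 1 library. Of 20 monocyte and macrophage genes 1 was above 0, with a median of -0.23, and 2 had a p under 0.05 (2.14% of all genes did in that direction). Fcgr3, an Fc receptor for IgG, had 401, 382 and 405 CPM at pH 6.4 against 590, 527 and 479 CPM at pH 8.4 (log2 fold change -0.42, SE 0.119), and Tyrobp, the signalling adaptor DAP12, had 348, 358 and 376 CPM against 480, 413 and 451 CPM (-0.31, SE 0.109). The acid libraries of both genes were within a narrow range below all alkaline ones, which follows in part from naming them by their small p. Of 16 genes of M2-like macrophages 1 lay above 0 (median -0.24), against 51.8% of all genes. Of the 16, 2 were lower with a p under 0.05, against 2.14% of all genes. The summed level of the 16 genes, 4373, 3746 and 4314 CPM in 6.4/aFGF, did not overlap with 4857, 5135 and 5201 CPM in 8.4/aFGF. That separation rested on the weight of abundant genes. The mean log2 CPM of the list, in which each gene counts the same, overlapped, at 6.15, 6.05 and 6.27 against 6.55, 6.42 and 6.25. Clec10a, a galactose-type lectin, had 127, 163 and 161 CPM against 212, 217 and 188 CPM (-0.45, SE 0.136). F13a1, the coagulation factor XIII subunit of resident macrophages, had 688, 605 and 792 CPM against 981, 865 and 818 CPM (-0.35, SE 0.148). Ccl24, a chemokine for eosinophils, had 8.91, 5.05 and 5.83 CPM against 16.8, 12.7 and 7.24 CPM (-0.89, SE 0.359), and its groups overlapped. The M2-like genes with a p under 0.05 were 5 without 6.4/aFGF replicate 3 and 1 without 6.4/aFGF replicate 2 or 8.4/aFGF replicate 2. The shares of all genes lower with such a p were, in the same order, 4.63%, 1.28% and 2.37%. Of 15 genes of M1-like macrophages 6 lay above 0, with a median of -0.21 that became 0.21 without 8.4/aFGF replicate 1. The only M1-like gene with a p under 0.05 was Il12b, a subunit of interleukin 12, which was higher at pH 6.4 (0.581, 0.864 and 0.999 CPM against 0.243, 0.416 and 0.216 CPM).

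The 24 neutrophil genes had a median of -0.47, with 22 below 0 and 2 with a p under 0.05 (48.2% and 2.14% of all genes). Clec4d, a C-type lectin of activated phagocytes, had 362, 298 and 264 CPM at pH 6.4 against 631, 382 and 444 CPM at pH 8.4 (log2 fold change -0.65, SE 0.215), and Csf3r, the receptor for G-CSF, had 302, 290 and 215 CPM against 532, 300 and 464 CPM (-0.68, SE 0.237). The summed level varied within the groups, at 11270, 9403 and 6330 CPM against 14052, 7343 and 15141 CPM. In 8.4/aFGF replicate 2 these genes were below 2 of the acid libraries. Of the 24 genes 7 had a p under 0.05 without that library or 6.4/aFGF replicate 1. The number was 0 without 6.4/aFGF replicate 3 or 8.4/aFGF replicate 1, and 1 without 6.4/aFGF replicate 2 or 8.4/aFGF replicate 3. The shares of all genes lower with such a p were, in the same order, 2.37%, 2.38%, 4.63%, 1.28%, 1.28% and 3.04%. Inflammatory cytokines turned on 1 library, with a median over 24 genes of -0.32 that became 0.35 without 8.4/aFGF replicate 1. That library had 1623 CPM of Il1b against 497 to 621 CPM in the other 5, and 10.8 CPM of the cytokine gene Csf2 (GM-CSF) against 0.445 to 2.30 CPM. The 23 immediate early genes behaved alike, with a median of -0.21 that became 0.17 without the same library. Klf2, a shear- and stress-responsive transcription factor, had 84.3, 80.5 and 126 CPM against 290, 202 and 119 CPM (-1.07, SE 0.342), and Ier5 had 126, 93.5 and 122 CPM against 202, 137 and 142 CPM (-0.48, SE 0.195).

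Stress genes and genes of the outer epidermis were lower at pH 6.4 as well. The 25 genes of the unfolded protein and heat shock responses, a list that includes Hmox1, had 22 members below 0, a median of -0.21 and 3 members with a p under 0.05 (48.2% and 2.14% of all genes). Hsph1, a large heat shock protein, had 60.7, 43.0 and 56.1 CPM at pH 6.4 against 74.2, 75.3 and 70.2 CPM at pH 8.4 (log2 fold change -0.45, SE 0.145), and Atf4, the transcription factor of the integrated stress response, had 225, 191 and 209 CPM against 284, 257 and 230 CPM (-0.30, SE 0.125). Summed, the list stood at 6265, 4963 and 6478 CPM in 6.4/aFGF and at 8559, 7760 and 6828 CPM in 8.4/aFGF. This separation rested on Hmox1, and without it the sums of 5253, 4248 and 5435 CPM overlapped with 6130, 5662 and 5270 CPM. Of 35 genes of differentiated and cornified keratinocytes 30 lay below 0 (median -0.36) and 2 had a p under 0.05 (48.2% and 2.14% of all genes). Flg, the filaggrin of the cornified layer, had 25.9, 37.4 and 31.3 CPM against 49.1, 51.4 and 35.6 CPM (-0.52, SE 0.192), and Calml3, a calmodulin-like protein of epithelia, had 20.3, 25.9 and 30.6 CPM against 35.7, 36.3 and 31.7 CPM (-0.43, SE 0.169). Without 6.4/aFGF replicate 3, in which these genes were highest of the acid group, 14 of the 35 had a p under 0.05. The number was 4 without 8.4/aFGF replicate 3, 0 without 8.4/aFGF replicate 1 and 1 or 2 without the others. The shares of all genes lower with such a p were, in the same order, 4.63%, 3.04%, 1.28% and 1.28% to 2.38%. The 25 genes of basal and wound-edge keratinocytes had a median of 0.08, and none had a p under 0.05.

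Of the remaining lists, some kept the sign of their median with any 1 library left out and others did not. The 70 interferon response genes had a median of -0.04 with 30 above 0, and it became 0.44 without 8.4/aFGF replicate 2. Of 26 endothelial genes 20 lay above 0, with a median of 0.15 that stayed between 0.04 and 0.34 with any 1 library left out, and none had a p under 0.05. Chemokine genes had a median of -0.22 over 31 genes (-0.45 to -0.07) and the genes of VEGF and angiopoietin signalling one of 0.16 over 20 genes (0.08 to 0.26). The medians were 0.09 for 35 respiratory chain genes, -0.07 for 34 hypoxia and glycolysis genes and 0.02 for 27 TGF-beta signalling genes, and each changed sign without 1 library. T and NK cell genes had a median of 0.28 over 27 genes at low levels (0.14 to 0.63), 22 of them above 0, summed to 70.2 to 146 CPM against 84.9 to 134 CPM. Among them Cd247, the zeta chain of the T cell receptor complex, had 2.35, 5.37 and 4.13 CPM against 1.76, 1.63 and 2.35 CPM. Its lowest acid and highest alkaline libraries were within 0.1 CPM of each other. The list of skeletal muscle genes had a median of 0.15 that became -2.52 without 6.4/aFGF replicate 3.

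**Figure D4:**
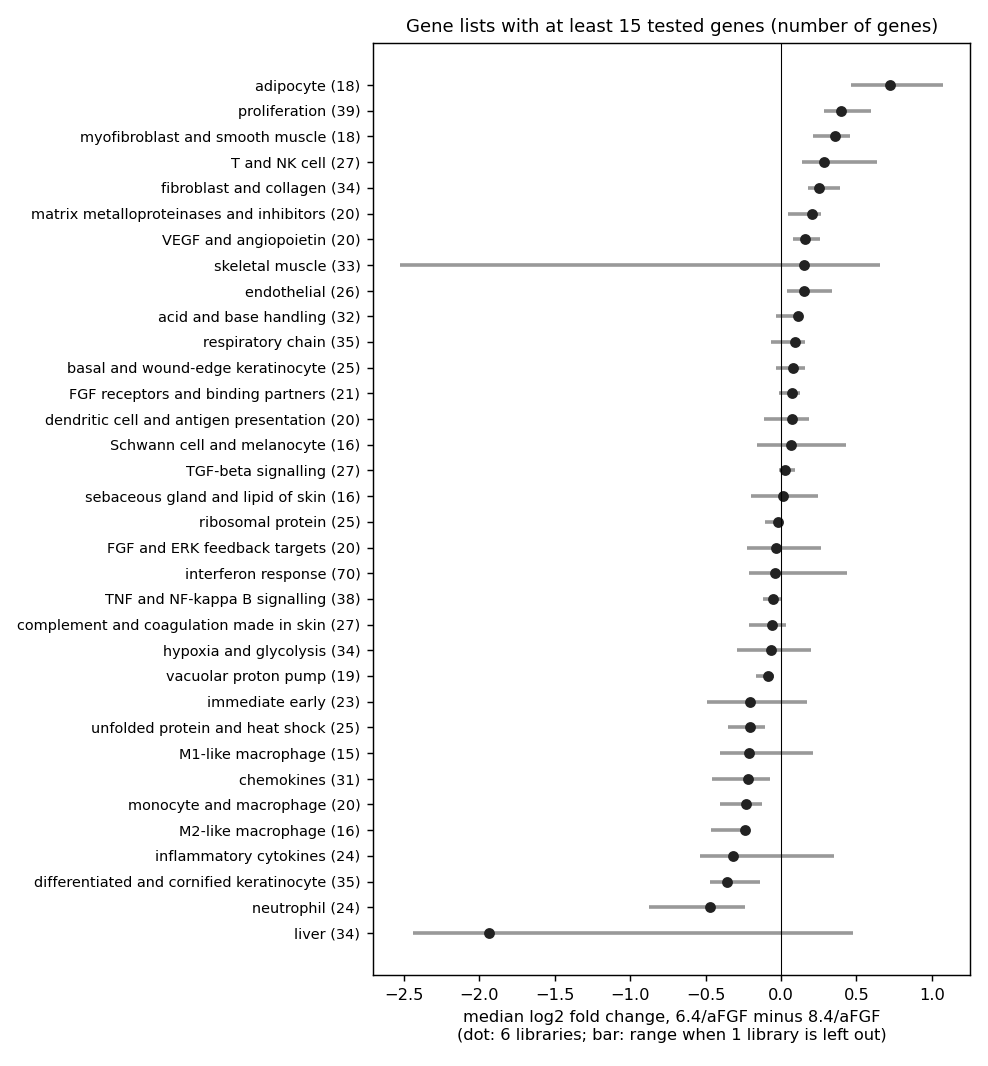
Each dot is the median log2 fold change (6.4/aFGF minus 8.4/aFGF) of the tested genes of a list, whose number stands in parentheses, and each bar is the range of that median when 1 of the 6 libraries is left out in turn. Adipocyte, proliferation, myofibroblast and fibroblast lists keep to the right of 0, neutrophil, monocyte and macrophage, M2-like, cornified keratinocyte and stress lists keep to the left, and the bars of the skeletal muscle and liver lists show that 1 library sets their median.

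Whether the pH difference was the same with basic FGF (bFGF, FGF2) was examined with the 6.4/bFGF and 8.4/bFGF wounds, 3 libraries each. The difference between the 2 pH differences was called for 0 of 15461 genes (0%) with edgeR (smallest adjusted p 0.521), and 1394 genes (9.02%) had an unadjusted p under 0.05. DESeq2 called 16 (0.0862%). Without 8.4/bFGF replicate 2, the library with ovary genes, edgeR called 0 genes and 1272 had a p under 0.05. Of the 1579 genes whose aFGF groups stood apart, 75 also stood apart with bFGF in the same direction and 151 in the opposite one. Of the 815 genes higher in 6.4/aFGF, 6.13% were higher and 10.6% lower in 6.4/bFGF, and of the 764 lower ones 8.51% were higher and 3.27% lower, where over all tested genes 6.1% were higher and 6.79% lower. Of the 20 genes described first, 2 had bFGF means in the same direction. The share of all genes with means in the same direction was not counted, so the 2 has no background to be read against. For 19 of the 20 the bFGF groups overlapped, as they did for most tested genes (6.1% and 6.79% stood apart). Hmox1 had 606, 867 and 1557 CPM in 6.4/bFGF against 614, 526 and 529 CPM in 8.4/bFGF. The difference of its log2 fold changes was -1.98 (SE 0.433, adjusted p = 0.521 with edgeR). The aFGF values by which Hmox1 was chosen enter this difference, so its size follows in part from that choice. Nfia had 30.2, 16.5 and 13.0 CPM against 23.9, 21.1 and 25.3 CPM, and Esr1 had 12.9, 5.14 and 4.07 CPM against 17.2, 15.5 and 9.53 CPM. The bFGF libraries at pH 6.4 were spread widely, with replicate 1 well apart from replicate 3 in each of these genes. Tnfsf14 had 14.3, 21.8 and 35.0 CPM against 22.3, 16.0 and 23.0 CPM.

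Liver transcripts were seen in 8.4/aFGF replicate 2. By a rule that takes genes above 0.5 CPM in 1 library and more than 8 times the next of the 21 libraries plus 0.05 CPM, 28 genes were high in this library alone, 1 in 6.4/aFGF replicate 1 (the kidney androgen-regulated gene Kap, 159 counts) and 0 in the other 4. Of the 28, 12 were on the list of liver genes, which was itself written with these data known. The other 16 included Mug1 and Pzp, protease inhibitors of plasma that were named after their values were seen. Alb, the serum albumin made by hepatocytes, had 81, 355 and 182 counts in 6.4/aFGF and 148, 4997 and 62 counts in 8.4/aFGF, replicate 2 of 8.4/aFGF being far above the rest. Ttr, the thyroid hormone carrier transthyretin, had 1, 68 and 8 counts against 6, 830 and 6 counts. Apoa2, an apolipoprotein of HDL, Ahsg, the fetuin of plasma, and Gc, the vitamin D-binding protein, had 693, 692 and 544 counts in that library. Of 59 liver genes in the files 44 were highest of the 6 libraries in 8.4/aFGF replicate 2. The library's label gives skin, and its keratinocyte and collagen genes lay within the range of the others.

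The 28 genes summed to 11525 counts in 8.4/aFGF replicate 2, or 0.0311% of its counts. They summed to 819 counts in 6.4/aFGF replicate 2, 930 and 712 counts in 7.4/aFGF replicates 1 and 2, 131 to 321 counts in the other 4 libraries of the acid and alkaline aFGF groups and 153 counts in 7.4/aFGF replicate 3. The 12 control and bFGF libraries held 69 to 264 counts. The list of liver genes had a median log2 fold change of -1.94 over 34 tested genes, which became 0.48 without 8.4/aFGF replicate 2, and Alb went from -3.13 (SE 1.58) to 0.85. When the genes of the liver list were taken out before the fit, edgeR still called 0 genes, and 748 had a p under 0.05.

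**Figure D5:**
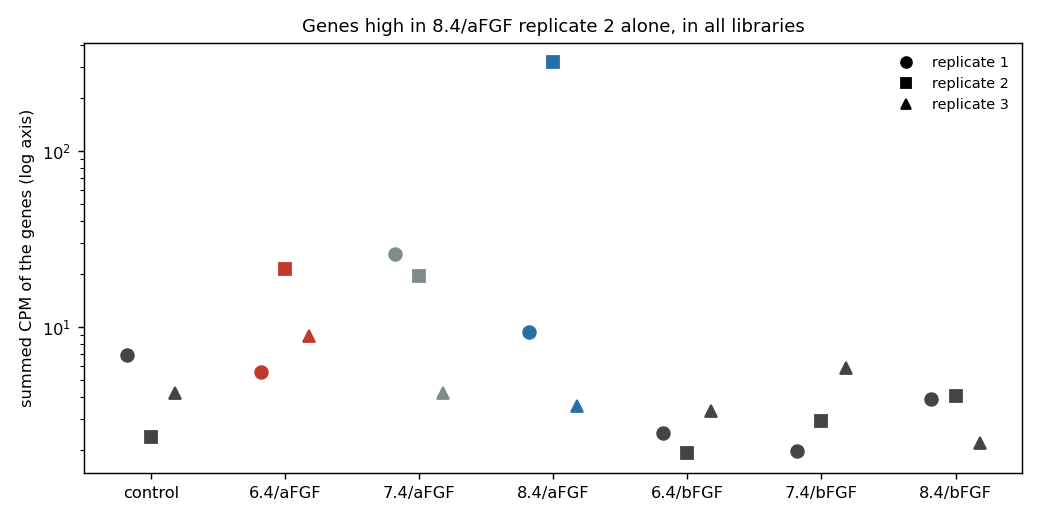
Each point is the summed level, in CPM on a log axis, of the 28 genes high in 8.4/aFGF replicate 2 alone, in each of the 21 libraries by group (x axis) and replicate (shape). The 8.4/aFGF replicate 2 library stands at 319 CPM, 3 libraries of 6.4/aFGF and 7.4/aFGF at 19.5 to 26.1 CPM, and all others below 10 CPM.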

How the data were processed

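RNA-seq libraries of mouse wound tissue were made from poly(A) RNA with a stranded kit, per the labels. Raw counts and FPKM values by gene symbol were deposited by the authors. The FPKM values equal the count over a fixed gene length and the library total (checked on 14938 genes, spread of the recovered length up to 9.85e-05%). The submitters' processing notes name GRCm39. The aligner, the counter and its use of strand are not given in the sources used here. Of 18806 symbols 18662 (99.2%) were in a RefSeq table of mouse.

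Groups followed the labels. Counts were tested in R 4.3.3 with edgeR 4.0.16 (TMM, filter by expression per group, quasi-likelihood test), with DESeq2 1.42.0 and limma 3.58.1 (log2 of FPKM plus 1 or 0.1) as alternatives. Log2 CPM used a prior count of 2. SE is the log2 fold change divided by the square root of the F statistic. P-values compare a difference between groups with the spread between these libraries, as estimated in a fit over all genes. The named genes were those of the study and its stains, the 10 with the smallest p in each direction among genes whose groups did not overlap, up to 4 members with the smallest p and the 2 most abundant of each list, up to 6 genes high in 1 library alone, and the 3 with the smallest interaction p. The 46 lists and the comparison were chosen with earlier results of these data known. The scripts were tested on simulated data. Some genes are not reported here.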

Additional observations from a re-analysis of the deposited data

Results flagged for a closer look

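For 5 of the 83 named genes with a fit, the acid and alkaline groups stood apart with both growth factors but in opposite directions. Over all 14991 tested genes this held for 151. The difference of the log2 fold changes (aFGF minus bFGF) was 1.10 for Tshz2, 1.58 for Myh11, -0.74 for S1pr2, 1.04 for Nrip1 and -0.70 for Arl4c, and none passed the test of the difference (adjusted p = 0.521 for each with edgeR). S1pr2, a receptor for sphingosine-1-phosphate, had 53.8, 51.4 and 49.3 CPM in 6.4/aFGF against 63.4, 73.1 and 74.5 CPM in 8.4/aFGF, and 73.8, 76.3 and 78.5 CPM in 6.4/bFGF against 59.6, 60.8 and 65.7 CPM in 8.4/bFGF. Nrip1, a corepressor of nuclear receptors, had 53.5, 60.1 and 55.2 CPM against 48.8, 37.3 and 34.6 CPM with aFGF and 39.0, 34.7 and 37.0 CPM against 59.6, 53.8 and 48.7 CPM with bFGF. Myh11 was at 39.4, 34.8 and 22.3 CPM in 6.4/bFGF and at 88.3, 82.3 and 53.9 CPM in 8.4/bFGF. S1pr2, Nrip1 and Arl4c were named because they had the smallest unadjusted p of that test, so their opposite directions follow in part from the choice. Tshz2 was named for aFGF groups that do not overlap and Myh11 for a small p with aFGF. Their separation with aFGF therefore follows at least in part from the choice as well.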

How the results depend on the processing

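Under 11 edgeR and limma alternatives (scaling, filters, dispersion, all 21 libraries, FPKM, the liver list taken out, the replicate number as a block) 0 genes were called for 6.4/aFGF against 8.4/aFGF, and 424 to 844 had a p under 0.05. The lowest was the block, with 0 calls. The deviations of same-numbered libraries from their group means had correlations of 0.12, -0.23 and -0.47, against -0.48 to 0.52 for differently numbered ones. With so few libraries these values cannot decide whether the replicate numbers mark a shared batch. Leaving out 1 library with edgeR gave 0 to 0 calls. DESeq2 called 15 genes (14 without Cook's cutoff and independent filtering) and 4 to 344 when 1 library was left out, namely 13, 4 and 344 without 6.4/aFGF replicates 1, 2 and 3 and 10, 38 and 29 without 8.4/aFGF replicates 1, 2 and 3. The choice to leave out libraries in DESeq2 was made after seeing the data. For the pH difference with aFGF against that with bFGF, edgeR called 0 genes under all alternatives and DESeq2 16, or 19 without those filters. The cause of the gap between the tools was not tested. Of 83 named genes 13 changed the sign of a log2 fold change that was not called. Leaving out 1 library gave ranges of -0.27 to 1.05 for Apold1, -0.41 to 0.26 for F830016B08Rik, -0.23 to 0.38 for Rnf213, -0.017 to 0.35 for Pecam1, -0.039 to 0.35 for Ccr7, -0.16 to 0.54 for Fgf1, -0.47 to 0.0058 for Fgf2, -0.064 to 0.062 for Pcna, -3.73 to 0.85 for Alb, -0.063 to 0.65 for Fgfr2, -0.094 to 0.20 for Fgfr3, -0.82 to 0.88 for Fgfr4 and -0.54 to 0.24 for Gpr65. Rnf213 was 0.054 with the replicate block and 0.068 with limma on log2(FPKM + 1). Pcna was -0.00407 with DESeq2, -0.00388 with RLE scaling and -0.000901 with all 21 libraries. Of 506 medians of the 46 lists 28 moved by more than the spread between replicates, 25 of them when a library was left out. The cause was not tested.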
